A study of Mus musculus with 4 samples.

Results

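The Kruppel-like factors are a family of DNA-binding proteins that recognise CACCC and GC-rich sequences through C2H2 zinc fingers at their carboxyl end. Differing amino-terminal parts recruit activators or repressors of transcription. In fat several of them act in sequence while precursor cells become adipocytes: some hold precursors back by repressing *Pparg*, the master regulator of fat cells, others are induced early and switch on *Cebpb*, and others act late, in cells that are already filling with lipid. Several members are also early response genes, whose mRNA rises within a short time of a stimulus such as serum, glucocorticoid or transforming growth factor beta (TGF-beta). Members with known roles in fat were described here, namely *Klf2*, *Klf3*, *Klf4*, *Klf6*, *Klf7*, *Klf9*, *Klf10*, *Klf11*, *Klf13* and *Klf15*. They are 10 of the 22180 genes that had a probe set with exactly 1 gene symbol, and a gene with several probe sets was read on the brightest.

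GeneChip Mouse Gene 2.0 ST arrays had been run on total RNA of whole epididymal fat from male mice aged 16 weeks (C57BL/6J by the labels, C57BL/6JJcl by the study's methods), with 4 arrays and 1 mouse in each of 4 groups. AdipoKO mice carried a floxed allele of the neighbouring X-linked genes *Mir221* and *Mir222* together with Cre driven by the adiponectin promoter, which directs the deletion to adipocytes, while flox/y mice carried the floxed allele without Cre. Each genotype was fed chow high in fat and sucrose (HFHS) or standard chow (STD), which gave the groups HFHS AdipoKO, HFHS flox/y, STD AdipoKO and STD flox/y. The groups follow the sample titles, descriptions and genotypes, because the source field of the labels names a different microRNA line and, on some arrays, a different chow. The arrays gave no check of the deletion, because neither microRNA gene reached background on any of them, with values of 4.04, 3.74, 3.64 and 5.09 for *Mir221* and 4.08, 3.61, 3.95 and 5.59 for *Mir222* (log2 values, HFHS AdipoKO, HFHS flox/y, STD AdipoKO and STD flox/y). By quantitative RT-PCR the study found both microRNAs raised on HFHS in epididymal fat of flox/y mice, a rise that was cancelled in AdipoKO. Cells of the tissue other than adipocytes are not meant to lose these genes. Since whole tissue was measured, fewer cells of a type and less mRNA per cell cannot be told apart.

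Of the 22180 genes, 11148 were called measured, meaning that their mean over the 4 arrays reached the background of 5.77 on the log2 scale, the level of the negative controls. The medians of the arrays lay between 5.39 and 5.42, and the share of probe sets above background was between 39.6% on STD flox/y and 44.9% on HFHS flox/y. All 12 adipocyte markers listed were above background on all 4 arrays, and their summed linear level was 39215 on HFHS AdipoKO, 36860 on HFHS flox/y, 36018 on STD AdipoKO and 36120 on STD flox/y. The 7 T and B cell markers with a probe set were below background on every array. Hepatocyte markers stood apart on 1 array: *Alb*, the major plasma protein of liver, was at 8.17 on HFHS AdipoKO, 12.21 on HFHS flox/y, 9.83 on STD AdipoKO and 8.69 on STD flox/y (log2 values), and the summed linear level of the 7 measured hepatocyte markers was 7204, 14304, 8606 and 8652 in the same order. *Cyp2e1*, which is among the 7, was at 12.66, 12.50, 12.79 and 12.92 (log2 values). It made up a large part of these sums and was lowest on HFHS flox/y, so the sums understate the contrast of the other markers. The median log2 value of the 7 was 6.40, 9.69, 7.02 and 6.51. The HFHS flox/y array enters the genotype comparison on HFHS, the diet comparison in flox/y and the genotype by diet difference. These hepatocyte marker values stand beside all 3. A smaller difference was seen on STD, where 6 of 7 were higher in AdipoKO, 1 past 1.5-fold, with a median log2 ratio of 0.42. Between the chows in AdipoKO 7 of 7 were lower on HFHS, 2 past 1.5-fold, with a median of -0.55. Their part in those 2 comparisons was not tested. The immediate early genes stood apart on another array: the summed linear level of 22 measured genes was 11472 on STD flox/y and between 4864 and 6987 on the other 3 arrays. With 1 array per group, a comparison that uses the HFHS flox/y or the STD flox/y array has no value without it.

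The deleted microRNAs share their seed, the bases 2 to 8 that pair with target mRNAs, and it is shown in capitals in the RefSeq mature sequences (GRCm38.p6, chromosome X, minus strand).
mmu-miR-221-3p: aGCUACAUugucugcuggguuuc
mmu-miR-222-3p: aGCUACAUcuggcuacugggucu
Of the 10 Kruppel-like factors, only *Klf3* is on the study's list of targets of these microRNAs, predicted or found earlier. RefSeq promoters were matched for 9 of the members and *Klf10* is named only. Those of 4 members are printed for the 250 bases upstream of the start, 5′ to 3′ on the strand of the gene: *Klf9* and *Klf6*, whose levels differed most between the genotypes, *Klf4*, which was lower on HFHS in both genotypes, and *Klf3*. The capitals mark CACCC, the core that Kruppel-like factors bind, or its reverse complement GGGTG.
Klf9 (chr19:23140976-23141225, plus strand): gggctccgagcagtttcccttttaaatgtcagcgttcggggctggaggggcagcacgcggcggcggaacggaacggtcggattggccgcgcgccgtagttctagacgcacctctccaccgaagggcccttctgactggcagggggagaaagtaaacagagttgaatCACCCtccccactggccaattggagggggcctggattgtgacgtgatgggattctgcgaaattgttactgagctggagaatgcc
Klf6 (chr13:5861239-5861488, plus strand): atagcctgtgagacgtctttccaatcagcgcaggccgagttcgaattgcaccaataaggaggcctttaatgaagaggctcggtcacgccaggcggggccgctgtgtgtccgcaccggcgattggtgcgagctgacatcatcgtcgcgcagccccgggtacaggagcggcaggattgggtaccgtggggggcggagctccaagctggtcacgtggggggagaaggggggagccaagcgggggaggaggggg
Klf4 (chr4:55532476-55532725, minus strand): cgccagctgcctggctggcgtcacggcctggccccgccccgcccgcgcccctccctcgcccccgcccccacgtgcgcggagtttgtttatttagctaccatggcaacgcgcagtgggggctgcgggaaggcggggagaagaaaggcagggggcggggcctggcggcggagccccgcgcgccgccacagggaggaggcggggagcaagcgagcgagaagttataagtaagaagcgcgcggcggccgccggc
Klf3 (chr5:64803271-64803520, plus strand): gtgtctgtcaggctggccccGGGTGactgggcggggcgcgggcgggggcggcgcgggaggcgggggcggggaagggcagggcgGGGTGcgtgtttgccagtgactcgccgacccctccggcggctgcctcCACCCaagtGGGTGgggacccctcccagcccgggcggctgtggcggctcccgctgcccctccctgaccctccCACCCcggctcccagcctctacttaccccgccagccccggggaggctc
The promoters of the 9 members were rich in G and C, between 59.2% and 78.4% with a median of 71.6%, against a median of 52.4% over all 32851 promoters in the table. CACCC was present on either strand in 6 of 9, against 52.0% of all promoters, with 5 matches in *Klf3*, 1 in *Klf9* and 0 in *Klf6* and *Klf4*. The GC box GGGCGG, the site of Sp factors and of many family members, was in 8 of 9, against 32.7%, and *Klf9* was the exception. The cyclic AMP response core TGACG was in 5 of 9, against 17.8%, among them *Klf9*, *Klf4*, *Klf2* and *Klf15*, whereas the full palindrome TGACGTCA was in 0 of 9, against 1.55%. The E-box CACGTG, which clock proteins and USF bind, was in 4 of 9, against 6.02%, namely *Klf4*, *Klf6*, *Klf11* and *Klf15*. CCAAT was in 5 of 9, against 33.8%, with 4 matches in *Klf6* and 3 in *Klf9*. The glucocorticoid element, an inverted repeat with a spacer, and the CArG box of serum response factor were in 0 of 9, against 0.387% and 1.47%. Both strands were searched for 8 motifs, the core TGACG is contained in the palindrome, and a match describes the letters in this window only. The windows of *Klf7* and *Klf15* lie inside the gene span given below, so they are upstream of a start within that span.

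All 10 members were above background on all 4 arrays. Over the arrays the log2 value of a member spanned between 0.31 in *Klf11* and 1.11 in *Klf9*. The STD flox/y array held the highest value of 8 members, and the exceptions were *Klf11* and *Klf15*, which were highest on STD AdipoKO. Over all measured genes the STD flox/y array was the highest in 29.4%. This share depends on normalization: 2562 of 11147 genes with quantile normalization and 2860 of 11148 with each array centred. The members stayed at 8 under both.

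**Figure D1:**
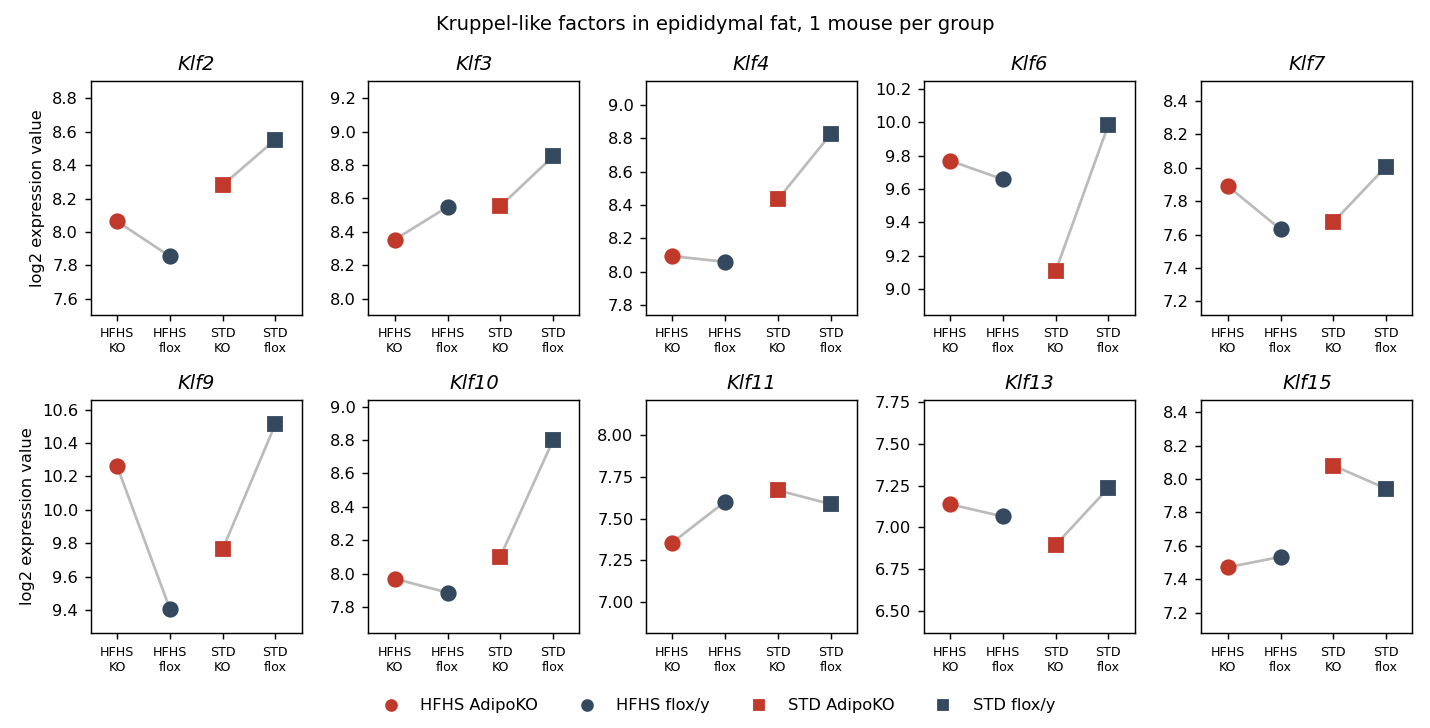
The log2 expression value of each Kruppel-like factor (vertical axes, each spanning the same range around its own middle) on the 4 arrays, 1 mouse each, with circles for HFHS, squares for STD, red for AdipoKO and dark blue for flox/y, and lines joining the genotypes on 1 chow. The STD flox/y square is the highest point in 8 of the 10 panels, and *Klf9* spans the widest range, 1.11.

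The first comparison asks what the deletion of *Mir221* and *Mir222* in adipocytes went with on STD chow. *Klf6*, *Klf9* and *Klf10* were lower in the AdipoKO mouse by 1.84-, 1.68- and 1.62-fold, and no member was higher by 1.5-fold. With 1 mouse per group this difference has no replicate check, and no test between the pair was possible. The 3 of 10 members at least 1.5-fold lower compare with 2.57% of all measured genes, and the 0 of 10 higher with 1.22%. The median log2 ratio of the members was -0.34, against 0.00 over all measured genes. Below 0 lay 8 of 10 members, against 49.3% of measured genes. In the same pair 16 of 22 immediate early genes were at least 1.5-fold lower in the AdipoKO mouse.

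*Klf6* (chr13:5861489-5870393) encodes a factor induced early by injury and serum, which in 3T3-L1 cells represses the preadipocyte gene *Dlk1*. Its log2 value was 9.77 on HFHS AdipoKO, 9.66 on HFHS flox/y, 9.11 on STD AdipoKO and 9.98 on STD flox/y. The STD AdipoKO mouse was the lowest of the 4, and the other 3 lay close together. The log2 ratio of AdipoKO over flox/y on STD was -0.88, a size exceeded by 1.20% of measured genes.

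*Klf9* (chr19:23141226-23168129) is a glucocorticoid-induced member that acts late in adipogenesis and binds the *Pparg2* promoter in 3T3-L1 cells. It was at 10.26 on HFHS AdipoKO, 9.41 on HFHS flox/y, 9.76 on STD AdipoKO and 10.51 on STD flox/y (log2 values). The high values were thus those of AdipoKO on HFHS and flox/y on STD. The log2 ratio on STD was -0.75, a size exceeded by 1.90% of measured genes.

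*Klf10* (chr15:38291464-38300711), first cloned as TGF-beta inducible early gene, codes for a repressor that recruits Sin3a. Its log2 value was 7.97 on HFHS AdipoKO, 7.89 on HFHS flox/y, 8.10 on STD AdipoKO and 8.80 on STD flox/y. The STD flox/y mouse stood above the other 3. The log2 ratio of AdipoKO over flox/y on STD was -0.70, a size exceeded by 2.36% of measured genes.

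The members that restrain fat cell formation differed less on STD than *Klf6*, *Klf9* and *Klf10*, as did the remaining members. *Klf2* (chr8:72319062-72321654), which represses *Pparg* in preadipocytes and keeps endothelium quiescent, was at 8.06, 7.85, 8.28 and 8.55 on HFHS AdipoKO, HFHS flox/y, STD AdipoKO and STD flox/y, with a log2 ratio on STD of -0.27. *Klf3* (chr5:64803521-64832901), a repressor that works through the corepressor CtBP, was at 8.35, 8.55, 8.55 and 8.85 on the same arrays, with -0.30. *Klf7* (chr1:64029448-64122345), which hinders differentiation of human preadipocytes, was at 7.89, 7.63, 7.68 and 8.01, with -0.33. All 3 were lower in the AdipoKO mouse on STD by between 1.21- and 1.26-fold. *Klf7* alone among the members had a further probe set, and that one was below background on all 4 arrays.

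Among the activators of the early and late steps, *Klf4* (chr4:55527137-55532475), which with Egr2 turns on *Cebpb* in 3T3-L1 cells, was at 8.09, 8.06, 8.43 and 8.82 on HFHS AdipoKO, HFHS flox/y, STD AdipoKO and STD flox/y. Its log2 ratio on STD was -0.39. *Klf13* (chr7:63886351-63938915), reported to activate *PPARG* in porcine cells, was at 7.14, 7.07, 6.90 and 7.24, with -0.34. Both ratios were under 1.5-fold. *Klf11* (chr12:24651371-24662782), the other TGF-beta inducible member, was at 7.36, 7.60, 7.67 and 7.59, with 0.08. *Klf15* (chr6:90461043-90491803), which induces the glucose transporter gene *Slc2a4* and amino acid catabolism, was at 7.47, 7.53, 8.08 and 7.94, with 0.14. These were the members that were not lower in the AdipoKO mouse on STD.

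On HFHS chow the genotypes differed at 1 member. *Klf9* was 1.81-fold higher in the AdipoKO mouse (log2 ratio 0.85, a size exceeded by 1.54% of measured genes), and no member was lower by 1.5-fold. The 1 of 10 higher compares with 2.17% of measured genes, and the 0 of 10 lower with 2.4%. The other 9 log2 ratios lay between -0.25 in *Klf11* and 0.26 in *Klf7*, and the median of the 10 was 0.08, against 0.00 over all measured genes. *Klf6*, *Klf10* and *Klf4* had ratios of 0.11, 0.08 and 0.03, so that the mice of both genotypes on HFHS were nearly level at these genes. Hepatocyte markers differed in this pair too, with 6 of 7 lower in the AdipoKO mouse and a median log2 ratio of -3.16, and their part in the *Klf9* value was not tested.

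**Figure D2:**
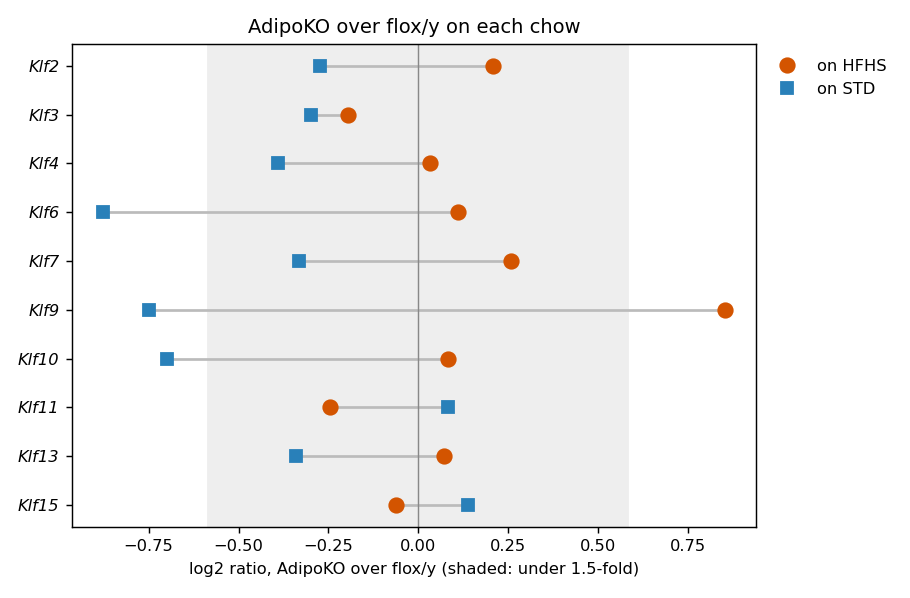
The log2 ratio of AdipoKO over flox/y (horizontal axis) for each Kruppel-like factor, on HFHS and on STD chow, 1 mouse per group. *Klf9* is the member with a large ratio on both chows, 0.85 on HFHS and -0.75 on STD, and *Klf6* and *Klf10* lie far below 0 on STD only.

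Set side by side, 7 of 10 members were lower in AdipoKO on STD and higher in AdipoKO on HFHS, which was so for 27.8% of measured genes. *Klf3* was lower on both chows, with -0.20 on HFHS and -0.30 on STD, as were 21.4% of measured genes, and no member was higher on both, as were 21.5%. The genotype by diet difference is the log2 ratio on HFHS minus that on STD. It was 1.60 in *Klf9*, a 3.04-fold difference between the ratios, and 0.99 in *Klf6*, 1.98-fold, and 95% of measured genes had a size of at most 0.86. *Klf9* alone passed 2-fold, 1 of 10 members against 2.16% of measured genes in this direction, and 0 of 10 did in the other, against 1.37%. The difference was 0.78 in *Klf10*, 0.59 in *Klf7*, 0.48 in *Klf2*, 0.42 in *Klf4*, 0.41 in *Klf13* and 0.10 in *Klf3*, while *Klf15* and *Klf11* had -0.20 and -0.33. The median was 0.45, against -0.01 over all measured genes. The difference rests on 4 mice, 1 per group, and was not tested. Of the 7 hepatocyte markers 6 had a negative difference past 2-fold, with a median of -3.23. In the direction of *Klf9*, 18 of 22 immediate early genes passed 2-fold with a median of 1.86, as did 4 of 12 glucocorticoid-induced genes, 4 of 10 TGF-beta early response genes and 3 of 7 smooth muscle markers, with medians of 0.82, 0.67 and 0.70. None of these lists had a gene past 2-fold in the other direction, and the part of any of them in the values of *Klf9* and *Klf6* was not tested.

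**Figure D3:**
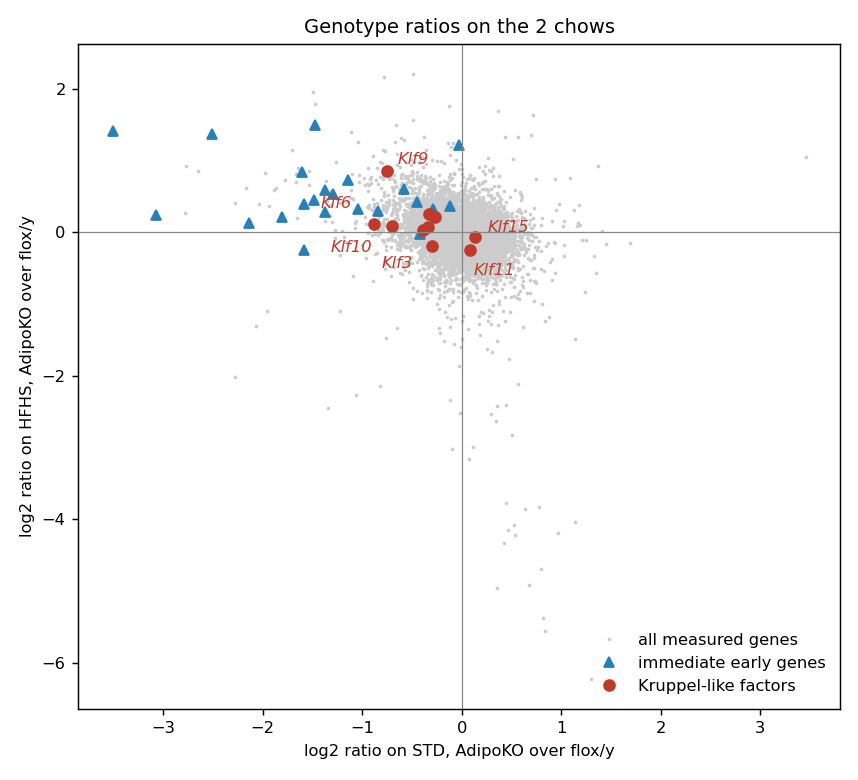
Each measured gene by its log2 ratio of AdipoKO over flox/y on STD (horizontal axis) and on HFHS (vertical axis), with the 10 Kruppel-like factors as red circles, 22 immediate early genes as blue triangles and all 11148 measured genes in grey. *Klf9* lies in the upper left at 0.85 on HFHS and -0.75 on STD, and most of the immediate early genes lie on the same side of both axes, many further to the left.

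*Klf9* was the member whose range over the arrays reached 1 on the log2 scale, and its pattern was compared with that of 10593 measured genes. The genes most like it, by the mean absolute difference between log2 values centred on their own mean over the 4 arrays, were *Btaf1* (0.040), *Tigd2* (0.049) and *Zfp948* (0.058). *Btaf1*, which codes for a regulator of TATA-binding protein, was at 8.18 on HFHS AdipoKO, 7.44 on HFHS flox/y, 7.77 on STD AdipoKO and 8.56 on STD flox/y. With 4 arrays many genes can come this close, and the likeness is a description.

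The effect of the chow was read within each genotype. In flox/y mice *Klf9*, *Klf10*, *Klf4* and *Klf2* were lower on HFHS by 2.15-, 1.88-, 1.70- and 1.62-fold, with log2 ratios of -1.11, -0.91, -0.76 and -0.70. These 4 of 10 compare with 7.07% of measured genes, and the 0 of 10 higher with 5.16%. The remaining members lay between -0.41 in *Klf15* and 0.02 in *Klf11*, and the median was -0.39, against 0.00 over all measured genes. In the same pair 6 of 7 hepatocyte markers were higher on HFHS, with a median of 3.01. Past 1.5-fold, 18 of 22 immediate early genes were lower and 0 higher, with a median of -1.34. Of the TGF-beta early response genes 5 of 10 were lower and 0 higher, with a median of -0.72. The part of these lists in the values of the members was not tested.

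In AdipoKO mice the chow went with other members. *Klf6* was 1.58-fold higher on HFHS (0.66) and *Klf15* 1.53-fold lower (-0.61). The 1 of 10 higher compares with 3.52% of measured genes and the 1 of 10 lower with 3.67%, and with each array centred on the median of its measured genes *Klf15* was at -0.58, just under 1.5-fold. *Klf9* was 1.41-fold higher (0.50), and the other 7 members lay between -0.34 in *Klf4* and 0.24 in *Klf13*. The diet comparisons share arrays with the genotype comparisons, so these are the same 4 values of each gene read another way.

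**Figure D4:**
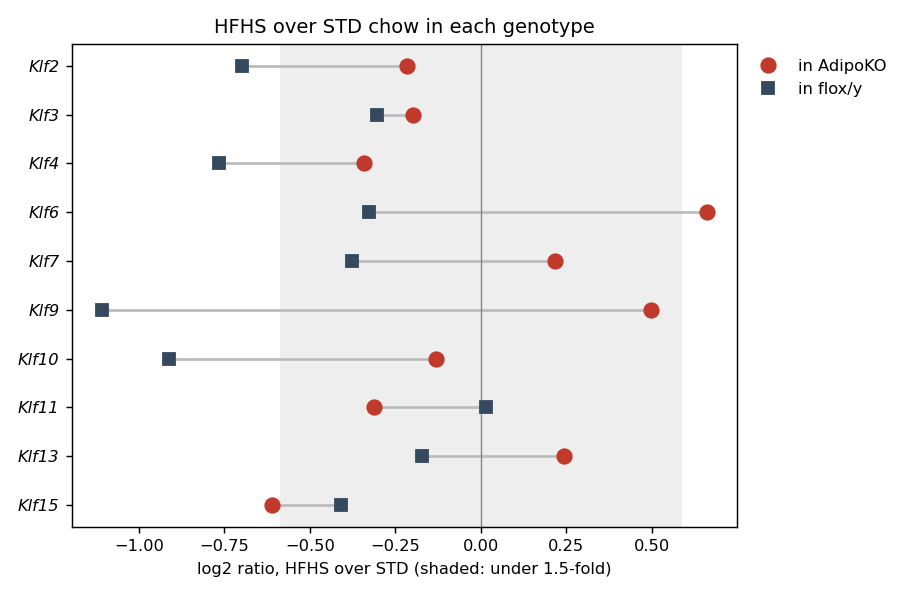
The log2 ratio of HFHS over STD (horizontal axis) for each Kruppel-like factor, in AdipoKO and in flox/y mice, 1 mouse per group. *Klf15* and *Klf4* lie below 0 in both genotypes, and *Klf9* and *Klf6* lie above 0 in AdipoKO and below 0 in flox/y.

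Members were then read by whether both genotypes went the same way. *Klf2*, *Klf3*, *Klf4*, *Klf10* and *Klf15* were lower on HFHS in both, 5 of 10 against 32.4% of measured genes, while *Klf6*, *Klf7*, *Klf9* and *Klf13* were lower on HFHS in flox/y and higher in AdipoKO, 4 of 10 against 17.8%. *Klf15* had both HFHS mice at 7.47 and 7.53 and both STD mice at 8.08 and 7.94, so the chows did not overlap, and *Klf4* had 8.09 and 8.06 on HFHS and 8.43 and 8.82 on STD. Both HFHS arrays lay below both STD arrays for 5 of 10 members, also *Klf2*, *Klf3* and *Klf10*, against 27.7% of measured genes. *Klf3* did so narrowly, at 8.548 on HFHS flox/y and 8.553 on STD AdipoKO. The count was 4 of 10 with quantile normalization, against 2651 of 11147 genes. With each array centred it was also 4 of 10, against 2699 of 11148.

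A fit over the 4 arrays with genotype and diet as terms (limma, Benjamini-Hochberg over 11148 genes) was the one test the design allows, setting 2 mice against 2 with 1 residual degree of freedom. It takes the genotype by diet difference as error, so that a gene such as *Klf9*, with opposite ratios on the chows, carries a large error: its genotype term was 0.05 (SE 0.43) and its diet term -0.30 (SE 0.43). No gene of the whole table had an adjusted p below 0.05 for either term in this fit. For genotype, 76 genes were higher and 101 lower at an unadjusted p below 0.05, or 0.682% and 0.906% (98 and 87 genes with each array centred), with 0 of 10 members among them. *Klf3* had the genotype term of -0.25 (SE 0.12, unadjusted p = 0.12, adjusted p = 1 by limma). For diet, 646 genes were higher and 798 lower, or 5.79% and 7.16%, and 2 of 10 members were among the lower. These were *Klf15* at -0.51 (SE 0.13, unadjusted p = 0.021, adjusted p = 0.36 by limma) and *Klf4* at -0.55 (SE 0.16, unadjusted p = 0.031, adjusted p = 0.38 by limma). Neither passed the adjusted threshold.

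The rest of the family was at low levels. Of 7 other Kruppel-like factor genes with a probe set, 3 were measured and none of these differed by 1.5-fold in any of the 4 comparisons. *Klf5*, which acts between *Cebpb* and *Pparg* in adipogenesis, was at 6.08 on HFHS AdipoKO, 5.82 on HFHS flox/y, 6.00 on STD AdipoKO and 6.15 on STD flox/y. *Klf14*, an imprinted gene whose human counterpart is linked to fat distribution, was at 6.59, 6.76, 6.64 and 6.27 on these arrays, and *Klf16*, a repressor, at 5.83, 6.03, 6.22 and 6.38. Of the Sp factors, which bind the same GC-rich sites, 3 of 8 with a probe set were measured. *Sp1* was 1.57-fold lower on HFHS in flox/y mice (6.34 on HFHS and 6.98 on STD), and no other ratio of *Sp1*, *Sp3* or *Sp4* reached 1.5-fold in the 4 comparisons. The corepressors and partners of the family, among them *Ctbp1*, *Sin3a* and the deacetylase gene *Hdac3*, gave 13 measured genes, none of which differed by 1.5-fold in any of the 4 comparisons.

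Immediate early genes, which cells switch on within a short time of serum or growth factors, were read beside the members. On STD 16 of 22 were at least 1.5-fold lower in the AdipoKO mouse and 0 higher, with a median log2 ratio of -1.37. On HFHS 8 were higher and 0 lower in the AdipoKO mouse, with a median of 0.41. The medians of the members in these pairs were -0.34 on STD and 0.08 on HFHS. The summed linear level of the immediate early genes was 6987 on HFHS AdipoKO, 4864 on HFHS flox/y, 5151 on STD AdipoKO and 11472 on STD flox/y. The STD flox/y array was thus the highest, as for 8 of the members. *Egr1*, a zinc finger gene induced by serum, was at 8.17, 6.75, 6.52 and 10.03 on these arrays, which put AdipoKO 11.36-fold below flox/y on STD. *Ier3*, an early gene of survival signalling, was at 7.94, 6.56, 6.71 and 9.23. Between the chows 18 of 22 were lower on HFHS in flox/y mice, and in AdipoKO mice 7 were higher and 1 lower. The median of the early genes by chow in AdipoKO was 0.35, whereas that of the members was -0.17. The part of this early response in the values of the members was not tested.

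Glucocorticoid-induced genes, a class to which *Klf9* belongs, gave 12 measured genes. On HFHS 5 were higher in the AdipoKO mouse by 1.5-fold and 0 lower, with a median log2 ratio of 0.42. *Fkbp5*, which codes for a chaperone of the glucocorticoid receptor, was at 8.88 on HFHS AdipoKO, 8.03 on HFHS flox/y, 8.04 on STD AdipoKO and 8.49 on STD flox/y. *Lcn2*, with the largest ratio of the list on HFHS at 0.96, was at 8.37, 7.41, 7.46 and 7.46. Unlike *Klf9* it was level between the genotypes on STD. *Errfi1*, an inhibitor of EGF receptor signalling, was at 10.73, 9.83, 9.64 and 11.29, highest on STD flox/y and next on HFHS AdipoKO, as was *Klf9*. Not all of the list went this way. The log2 ratio on HFHS was above 0 in 9 of the 12 and below 0 in 2, *Tsc22d3* at -0.27 and *Per1* at -0.07. On STD 3 were lower and 0 higher in AdipoKO, with a median of -0.22. Of the 10 measured TGF-beta early response genes, the class of *Klf10* and *Klf11*, 3 were lower on STD in AdipoKO and 2 higher on HFHS. *Smad7*, the inhibitory Smad, was 2.11-fold lower and *Skil*, a corepressor of Smads, 2.05-fold lower on STD.

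**Figure D5:**
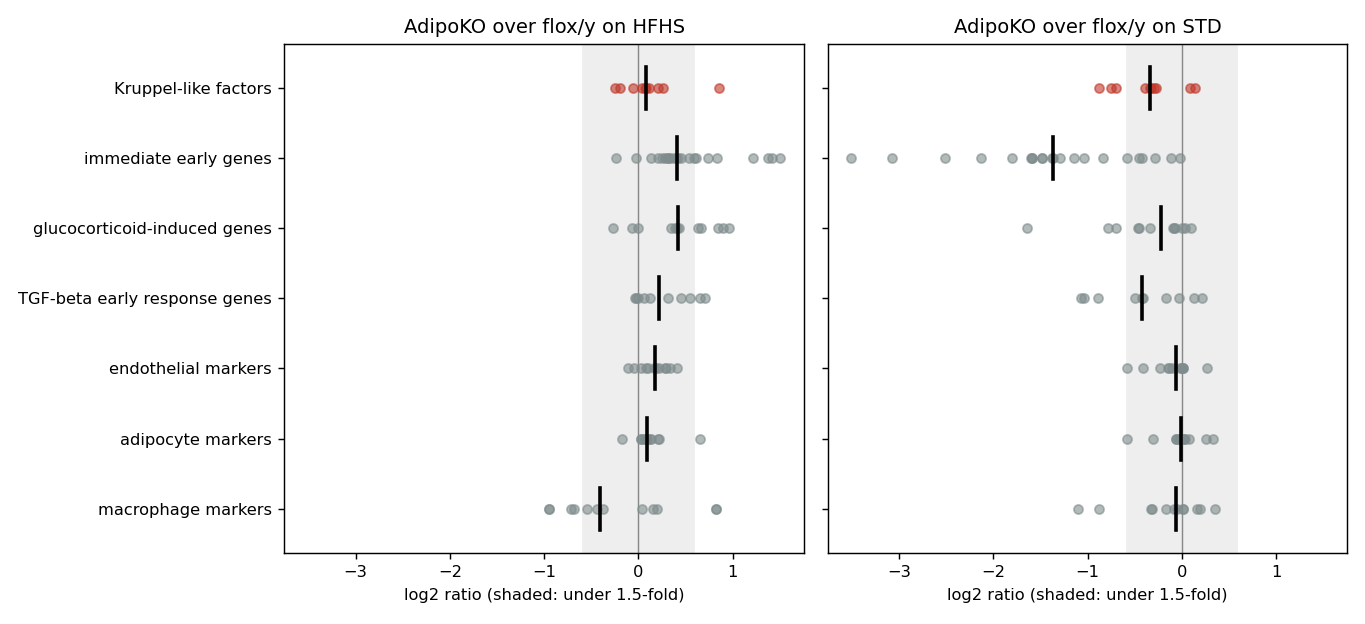
The log2 ratio of AdipoKO over flox/y on HFHS (left) and on STD (right) for the measured genes of 7 lists, each point a gene, each bar the median, and the shaded band ratios under 1.5-fold. On STD the medians are -0.34 for the Kruppel-like factors and -1.37 for the immediate early genes, and that of the endothelial markers is -0.06.

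Genes next to the Kruppel-like factors in adipogenesis were read from the same arrays. *Cebpb*, the target of *Klf4*, was at 8.09 on HFHS AdipoKO, 7.42 on HFHS flox/y, 7.69 on STD AdipoKO and 8.53 on STD flox/y, 1.59-fold higher in AdipoKO on HFHS and 1.80-fold lower on STD. *Pparg*, on which *Klf2*, *Klf9* and *Klf15* converge, was at 10.37, 9.71, 10.28 and 10.58, 1.58-fold higher in AdipoKO on HFHS and 1.23-fold lower on STD. These array ratios rest on 1 mouse per group, and the HFHS pair includes the array with the high hepatocyte markers. By quantitative RT-PCR of epididymal fat, the study reported no change of *Pparg* in AdipoKO. Of 12 measured genes of the cascade, 2 were higher and 0 lower on HFHS, and 0 higher and 2 lower on STD. The lower pair was *Cebpb* and *Egr2*, which is also an immediate early gene.

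Genes reported downstream of *Klf2* and *Klf4* gave 6 measured genes. On HFHS *Cdkn1a*, the cell cycle inhibitor, was 1.97-fold higher and *Nos3*, the endothelial nitric oxide synthase gene, 1.65-fold higher in AdipoKO, and on STD none of the 6 differed by 1.5-fold. In flox/y mice *Nos3*, *Cdkn1a* and *Thbd*, the thrombomodulin gene, were lower on HFHS by 2.10-, 2.07- and 1.61-fold, and *Klf2* and *Klf4* were lower in the same pair. The 12 endothelial markers, all measured, gave 0 genes past 1.5-fold in each of the 4 comparisons. Their summed linear level was 8420 on HFHS AdipoKO, 7300 on HFHS flox/y, 7655 on STD AdipoKO and 7927 on STD flox/y. Under that fold, 10 were higher and 2 lower in AdipoKO on HFHS, with a median log2 ratio of 0.18. By chow in flox/y, 3 were higher and 9 lower on HFHS, with a median of -0.14.

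Of 12 measured genes reported downstream of *Klf15*, *Slc2a4*, the insulin-responsive glucose transporter gene, was at 8.21 on HFHS AdipoKO, 7.99 on HFHS flox/y, 7.28 on STD AdipoKO and 7.34 on STD flox/y. It was higher on HFHS in both genotypes, by 1.91-fold in AdipoKO and 1.57-fold in flox/y, and *Klf15* was lower on HFHS in both. *Fbxo32*, a muscle atrophy ubiquitin ligase gene, was 1.91-fold lower on HFHS in AdipoKO (6.40 on HFHS and 7.33 on STD). In flox/y *Aldh6a1*, of valine breakdown, and *Bcat2*, which starts the breakdown of branched-chain amino acids, were lower on HFHS by 1.56- and 1.52-fold. Past 1.5-fold by chow, 1 gene of the list was higher and 2 were lower in AdipoKO, and 2 were higher and 2 lower in flox/y, with medians of -0.21 and -0.13. Between the genotypes on STD, *Fbxo32* was 1.51-fold higher and *Bcat2* 1.57-fold lower in AdipoKO, and on HFHS only *Tat* was past 1.5-fold. *Tat*, the tyrosine aminotransferase gene, which is also a liver gene, was at 5.79, 10.74, 7.49 and 7.14, highest on the array with the high hepatocyte markers.

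The other cells of the tissue were read from their markers, first between the genotypes and then by chow. The summed linear level of the 12 macrophage markers was 4979 on HFHS AdipoKO, 5879 on HFHS flox/y, 4175 on STD AdipoKO and 4683 on STD flox/y, and against flox/y 2 were higher and 4 lower in AdipoKO on HFHS chow, and 0 higher and 2 lower on STD chow. Progenitor and fibroblast markers summed to 7863, 9853, 8143 and 8247, with 0 of 10 past 1.5-fold between the genotypes on STD and 4 lower in AdipoKO on HFHS. Smooth muscle markers summed to 5228, 4159, 4111 and 4473, with 3 of 7 higher in AdipoKO on HFHS and 1 lower on STD. Mesothelial markers summed to 1198, 1307, 1401 and 1828, with 3 of 7 lower in AdipoKO on STD. By chow, 2 of 10 progenitor and fibroblast markers were higher on HFHS in AdipoKO and 5 in flox/y, where their median was 0.69. Of the macrophage markers 3 were higher and 1 lower on HFHS in AdipoKO, and 2 were higher and 1 lower in flox/y. Smooth muscle markers gave 1 higher and 0 lower in AdipoKO, and 0 higher and 2 lower in flox/y. Mesothelial markers gave 0 higher and 1 lower in AdipoKO, and 0 higher and 2 lower in flox/y. Their part in the values of the members was not tested.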

How the data were processed

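The values deposited by the authors are on the log2 scale and normalized, with 41345 probe sets on each of 4 arrays (1 mouse per group). Their normalization was not given in the sources used here. A statement of the study is that a company analysed the arrays. Symbols came from the platform annotation, with 23521 probe sets naming exactly 1 gene, and each gene was read on the probe set with the highest mean. Background was the mean of the log2 negative control averages printed in the study's comparison sheets, whose values, compared in 1644 rows, lay within 4.8e-05 of those deposited (log2). The sheets' own ratios and flags were not used.

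Ratios are differences of log2 values, with the AdipoKO or HFHS array on top. Counts took measured genes past 1.5-fold (2-fold for the genotype by diet difference) with at least 1 array of the pair above background. Arrays have no read depth, so that their number limits the precision. The test was limma 3.58.1 in R 4.3.3 with empirical Bayes and a trend. Figures were drawn with matplotlib 3.10.9, and other steps used scipy 1.17.1, numpy 2.4.6 and pandas 2.3.3 under Python 3.11.15. The steps were tested on simulated data. Sequences came from RefSeq (GRCm38.p6), and gene positions are on GRCm38.

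The members and the 17 other gene lists were chosen with earlier results of these data known. All members were named, and from each other list at most 4 measured genes with the largest ratio in the comparison described, with measured family members and the 3 genes most like a member whose range reached 1. Genes given as background to a list or to the arrays (*Ctbp1*, *Sin3a*, *Hdac3*) were named for their role. *Cyp2e1*, *Tsc22d3* and *Per1* were named because they went against most of their list in the genotype comparison on HFHS. Alternatives were quantile normalization, centring of each array, the mean of all probe sets, other filters, backgrounds and thresholds, and limma without trend, robust or without the covariate. Counts of members by pattern over the 4 arrays were added after seeing the data.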

Additional observations from a re-analysis of the deposited data

Results flagged for a closer look

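The genotype ratio of *Klf9* went opposite ways on the chows, 0.85 on HFHS and -0.75 on STD (log2 of AdipoKO over flox/y), a difference of 1.60 that was not tested. That of *Klf6* was 0.11 on HFHS and -0.88 on STD, a difference of 0.99, likewise not tested. Both rest on 1 mouse per group, and groups of 1 could not be searched for a sample far from the others.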

How the results depend on the processing

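Of 105 counts of members recomputed under alternatives, 7 moved by over 1.5 times. All 10 members lay above each filter and background tried, so that those settings could not move the counts by fold. At a 2-fold threshold the members lower in AdipoKO on STD became 0, as did those higher in AdipoKO on HFHS. Those higher and lower on HFHS in AdipoKO became 0 each. Those lower on HFHS in flox/y became 1 (*Klf9*), against 184 of 11148 measured genes. With each array centred on its measured genes, the members lower on HFHS in AdipoKO were 0, since *Klf15* stood at -0.58. At a 1.5-fold threshold 4 of 10 members were higher in the genotype by diet difference, as were 765 of 11148 measured genes. In the other direction 0 members passed, against 627 measured genes. A changed threshold moves such counts by its construction. The mean of all probe sets could not change the 9 members with 1 probe set. Of the 105 other member ratios under quantile normalization, centring and the mean of all probe sets, 104 kept their side of the threshold, 1 crossed it and 0 changed sign, and the largest change was 0.09. limma called 0 members under each alternative run, and the lowest adjusted p of a member was 0.145, for *Klf15* and diet without the covariate. That fit called 1 gene of the table, lower on HFHS. There, as with no filter, 3 members had an unadjusted p below 0.05 for diet by limma, *Klf2* joining *Klf4* and *Klf15*. All 3 were lower on HFHS. At this cut 890 genes were higher and 1189 lower of 11148 without the covariate. With no filter 1150 were higher and 1108 lower of 22180.

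No paired analysis was possible because each group holds 1 mouse and the labels give no shared replicate numbers. Leaving out a replicate would leave no comparison. The values describe 4 mice, mouse and group cannot be told apart, and a ratio between a pair of arrays has no error.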
